A study of Homo sapiens with 97 samples.

Results

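Short late-replicating domains are stretches of late-replicating DNA under 500 kb in the genome of U2OS cells, a human osteosarcoma line. They were chosen by the timing lists alone: touching intervals of the same timing class were joined on chromosomes 1 to 22 and X, and late domains shorter than 500 kb were kept. This gave 1440 short late domains among 1781 late domains and 13611 domains of all 4 classes (early, mid-early, mid-late and late). The other 341 late domains, of 500 kb or more, are called long here.

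The series followed DNA replication near double-strand breaks in 97 samples from 3 cell lines. The timing lists come from untreated U2OS cells and were attached to a merged G1 and a merged S phase sample. The peaks come from nascent strand sequencing (NS-seq) of AsiSI-U2OS cells, in which adding 4-hydroxytamoxifen (4OHT) starts cutting by the restriction enzyme AsiSI. The NS-seq libraries of the series were from cells treated with 300 nM 4OHT for 4 h, from untreated cells and from input DNA. The single peak list was attached to an input sample and is named as merged without saying which libraries it merges. The break sites come from HCT116 cells, a colorectal carcinoma line, which lacked the ligase LIG4, carried the cohesin subunit RAD21 with an auxin-inducible degron, and were treated with 300 nM 4OHT for 4 h. Timing, peaks and break sites were therefore measured in different lines or derivatives, each list stands for 1 pooled result, and no list gives a replicate error.

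A human chromosome is copied in a set order during S phase, and neighbouring origins tend to fire at similar times. Late-replicating DNA is on the whole poor in genes and in active origins, is often held at the nuclear lamina, and tends to lie in long blocks. Origins are the places where replication starts, and NS-seq maps them through the short, RNA-primed strands made there. In these lists most domains of every class were under 500 kb. The median length was 151.7 kb for early, 81.5 kb for mid-early, 121.6 kb for mid-late and 135.2 kb for late domains.

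Short domains made up 80.9% of late domains but 26.4% of late sequence (198 Mb of 750 Mb) and 6.72% of the listed 2953 Mb. Their median length was 101.1 kb, with quartiles at 51.5 and 186.3 kb. The shortest were 20 kb long and lay on chromosome 3 (59275601 to 59295600), chromosome 4 (87796701 to 87816700) and chromosome 10 (53578501 to 53598500). In all, 99 domains were under 25 kb. Of the 1440 domains, 1055 (73.3%) were a single interval in the deposited list, 288 joined 2 intervals, and 97 joined 3 or more, with at most 5. Length chose the members, so these values describe them and no test is given.

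**Figure D1:**
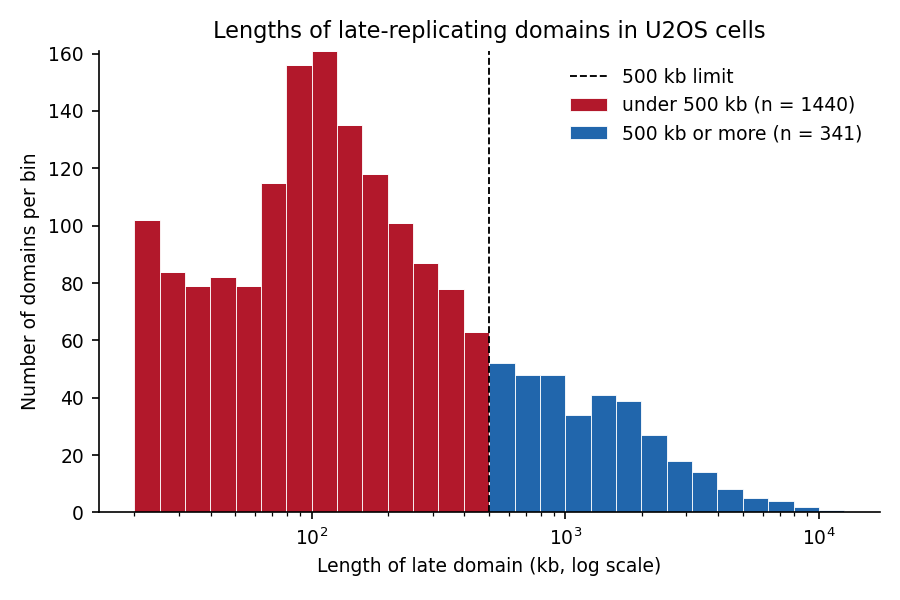
Number of late domains by length, in bins of equal width on a log axis in kb, with the 500 kb limit as a dashed line. The 1440 short domains peak near their median of 101.1 kb, and the counts run on across the limit into the 341 long domains without a gap.

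No gap in length sets the short domains apart at the limit. The 5 longest were 499.7 kb (chromosome 11, 91599701 to 92099400), 499.2 kb (chromosome X, 126812301 to 127311500), 497.2 kb (chromosome 4, 127525601 to 128022800), 496.8 kb (chromosome 12, 91511801 to 92008600) and 492.2 kb (chromosome 4, 68367801 to 68860000). The 5 shortest long domains measured 502.1 kb (chromosome 6, 147575001 to 148077100), 506.3 kb (X, 61843201 to 62349500), 509.3 kb (chromosome 14, 106743801 to 107253100), 513.7 kb (X, 34062701 to 34576400) and 514.1 kb (X, 123863501 to 124377600). All 10 of these domains held 0 NS-seq peaks. Peaks were uncommon at these lengths: 12.9% of late domains of 400 to 500 kb and 12.8% of those of 500 to 1000 kb held any.

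Short late domains lay close to other late sequence. The nearest late domain was 102.2 kb away at the median (quartiles 51.4 and 196.0 kb), and it was less than 100 kb away for 696 domains (48.3%). The closest gap was 20 kb. The nearest long late domain was farther, 1113 kb at the median over the 1430 short domains on chromosomes that have one, and 506 of them (35.4%) had a long domain within 500 kb. Long domains themselves had their nearest late neighbour at a median of 52.7 kb.

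Many short domains followed one another with no long late domain between them. They formed 277 such runs, of which 42 held 10 or more domains, and these 42 runs contained 539 short domains (37.4%). The longest run counted 38 short domains from 38893501 to 81174200 on chromosome 9, a stretch of 42.3 Mb that includes a mid-early interval far over 1 Mb long. The next runs held 18 domains each, over 34.2 Mb of chromosome 19 (24137201 to 58339500) and over 19.4 Mb of chromosome X (36152201 to 55566900). Chromosome 1 (89257201 to 102423600) and chromosome 14 (28357701 to 41377800) had runs of 16.

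At the other end, 74 short domains (5.14%) had no other late domain within 1 Mb. The most isolated was on chromosome 5 (178168501 to 178333200), 11801 kb from the nearest late sequence. It was followed by chromosome 11 (70601901 to 70695500, 7848 kb away), chromosome 1 (13417201 to 13525400, 7623 kb), chromosome 7 (78147001 to 78260400, 7252 kb) and chromosome 14 (19054301 to 19318900, 6580 kb). All 5 had mid-early sequence beyond both flanks. The chromosome 14 domain lies 0.104 Mb from the start of the list, and the chromosome 5 domain lies 2.58 Mb from the chromosome end. For these domains the distance is therefore measured on 1 side only. Only the chromosome 11 domain of these 5 held NS-seq peaks, 2 in 93.6 kb.

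Mid-late sequence bordered short late domains on 2876 of 2880 sides, and 1436 domains had it on both sides. The 4 exceptions were all below the median length. A domain of 24.2 kb on chromosome 10 (348701 to 372900) met mid-early sequence on its right. On chromosome X, domains of 98.4 kb (58218301 to 58316700) and 64.0 kb (71994801 to 72058800) met mid-early sequence on their left, and a domain of 45.8 kb (109329101 to 109374900) met early sequence on its right. None of the 4 held a peak, and neither did 1354 of all 1440 short domains. Classes cut from a single timing profile would meet in order by construction, so the borders are given as a description.

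The mid-late flank of a short domain had a median length of 134.5 kb, against 93.4 kb for a long domain. Beyond the flanks the short domains split into 3 main settings. In 665 domains (46.2%) the next class on both sides was late again, so the domain was an island in a stretch that went back and forth between mid-late and late. In 599 (41.6%) it was late on 1 side and mid-early on the other. In 152 (10.6%) it was mid-early on both sides, so that classes got earlier in both directions, and these were the smallest, with a median of 67.1 kb against 131.6 kb where both sides were late. Long domains showed the settings in other proportions: 58.1% late on both sides, 36.1% late on 1 side and 4.99% mid-early on both.

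Short late domains were found on every chromosome listed. Chromosome X had the most per listed Mb (0.850, 132 domains), followed by chromosome 4 (0.774, 148 domains) and chromosome 18 (0.717, 56 domains). The fewest were on chromosome 17 (0.185, 15 domains), chromosome 22 (0.283, 10 domains) and chromosome 1 (0.289, 72 domains). Over the 23 chromosomes the number per Mb went with the late share of the chromosome (Pearson's r = 0.76, Spearman's rho = 0.72). Both measures come from the same lists, and the relation is a description. Short domains made up from 15.6% of the late sequence of chromosome 3 to 61.2% of that of chromosome 19 and 100% of that of chromosome 22, which has no long late domain.

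NS-seq peaks were not used to choose the domains, so their density can be compared. Each peak was assigned by its midpoint. The short domains held 142 of the 3724 peaks on these chromosomes (3.81%), or 0.716 per Mb (exact Poisson 95% interval 0.603 to 0.844). Long late domains held 101 peaks in 552 Mb, or 0.183 per Mb (0.149 to 0.222). Poisson intervals cover counting error only and are too narrow where peaks cluster. A quasi-Poisson regression over domains included chromosome as a term and widened the error for clustering of peaks within domains. It gave a density 3.53 times as high in short as in long domains (95% interval 2.30 to 5.40, two-sided F test, n = 1714 domains, adjusted p = 2.53e-08 over the 3 comparisons of peak density). The fit takes domains as independent and does not cover clustering across neighbouring domains. Its interval can therefore be too narrow and its p-value too small. Domains are the units of this test and are not biological replicates, so the p-value speaks of these lists and not of repeated experiments.

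Most short domains had no peak. Only 86 of 1440 held 1 or more (5.97%, Clopper-Pearson 95% interval 4.80% to 7.32%), against 51 of 341 long domains (15.0%, 11.3% to 19.2%), which are far longer. Of the 86 domains, 61 held 1 peak, 14 held 2 and 11 held 3 or more. These 11 domains carried 53 of the 142 peaks. A domain without a listed peak may still contain origins, since the list starts at a score of 10.0.

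Among late domains, the longer length classes in general had the lower densities. Domains of 20 to 50 kb had 1.18 peaks per Mb (0.628 to 2.02, 345 domains), those of 50 to 100 kb had 0.969 (0.633 to 1.42) and those of 100 to 200 kb had 0.723 (0.521 to 0.978). Between 200 and 500 kb the density was 0.639, 0.525 and 0.611 in steps of 100 kb. Intervals of neighbouring length classes overlapped throughout the short domains. Across the limit, domains of 500 to 1000 kb had 0.300 (0.205 to 0.424) and those of 2000 kb or more had 0.0750 (0.0464 to 0.115). The ratio of short to long domains was 3.19 with the limit at 300 kb (n = 1714 domains, adjusted p = 7.96e-07) and 3.50 with the limit at 1 Mb (adjusted p = 3.62e-07), so it did not turn on the 500 kb limit.

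**Figure D2:**
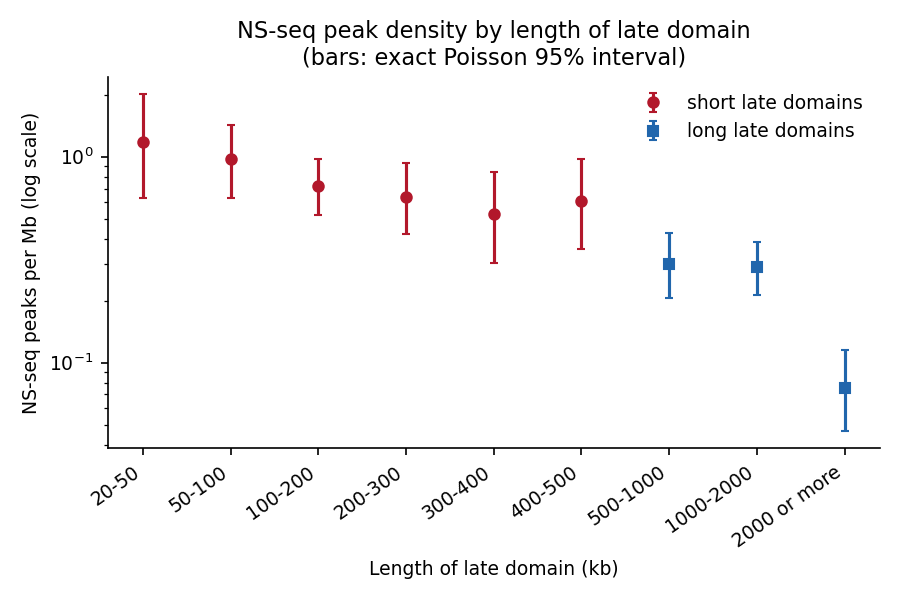
NS-seq peaks per Mb (log axis) in late domains by length in kb, short domains in red and long domains in blue, with exact Poisson 95% intervals. Values lie between 0.525 and 1.18 in the 6 classes of short domains and fall to 0.0750 in domains of 2000 kb or more.

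The other timing classes were counted in the same way. Mid-early domains under 500 kb had 2.06 peaks per Mb and larger ones 0.458, and mid-late domains had 1.36 and 0.687. Early domains had 1.90 below and 1.78 above the limit, with overlapping intervals. Short late domains, at 0.716, were close to the mid-late domains of 500 kb or more (0.574 to 0.815). These densities pool all chromosomes and were not tested against each other. The large mid-early domains include 20 single intervals over 1 Mb, which span 99.9 Mb and held 0 peaks. Whether reads can be mapped in these intervals was not analysed here, so their class and their lack of peaks may not describe replication. The other 33.2 Mb of these domains had 1.84 peaks per Mb (1.41 to 2.36), an interval that includes the 2.06 of the smaller ones.

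Every base of a short domain lies within 250 kb of a border, so long domains were also compared through the 250 kb inside each of their borders. These outer zones held 47 peaks in 170 Mb, or 0.276 per Mb. Short domains had 2.33 times this density (95% interval 1.40 to 3.90, quasi-Poisson F test, n = 1714 regions, adjusted p = 9.59e-04). In regions away from chromosome ends and wide intervals, a choice made after seeing the data, the ratio was 1.87 (0.925 to 3.76) and did not pass (n = 1083 regions, adjusted p = 0.111).

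Around a border the short domains showed no step in density. In the 50 kb outside their borders, in mid-late sequence, there were 0.664 peaks per Mb (0.527 to 0.826, 80 peaks), and in the 50 kb inside there were 0.776 (0.621 to 0.957, 87 peaks). From 50 to 100 kb inside the density was 0.767, and from 100 to 150 kb inside it was 0.387 (0.177 to 0.735, 9 peaks). Bins from 50 to 250 kb outside ranged from 0.452 to 1.42. Bins farther from the border come only from longer domains or flanks. Borders of long domains were lower on both sides, with 0.159 outside (0.0433 to 0.407, 4 peaks) and 0.205 inside (0.0825 to 0.423, 7 peaks). Inside short domains, 77 of 142 peaks (54.2%) were nearer to a border than to the centre of the domain.

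**Figure D3:**
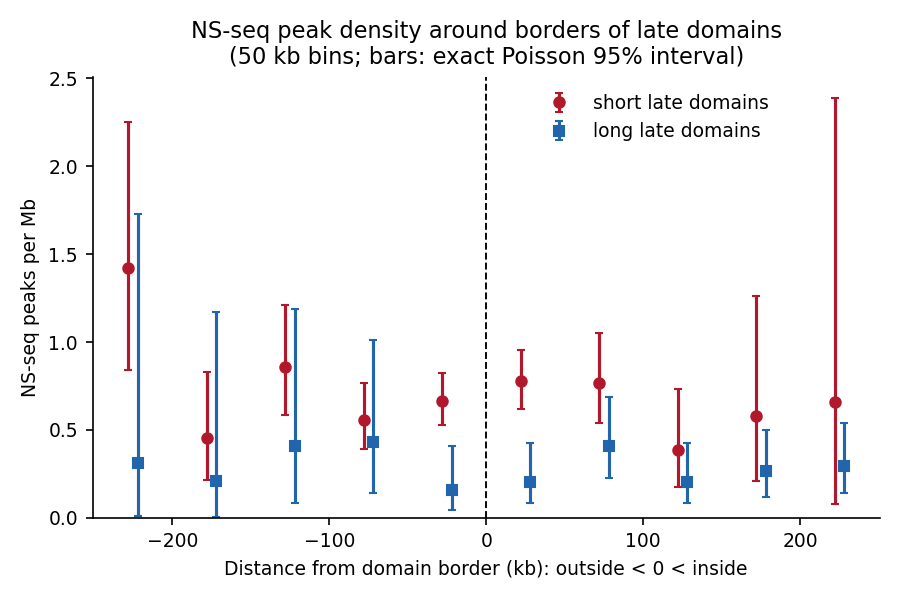
NS-seq peaks per Mb in 50 kb bins by distance in kb from the border of a late domain, negative outside (up to the middle of the flank) and positive inside, with exact Poisson 95% intervals. Short domains (red) have 0.664 and 0.776 in the bins beside the border, and long domains (blue) have 0.159 and 0.205.

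The flanks themselves gave the same picture over their whole length. The 2101 mid-late domains that touch a short late domain held 314 peaks in 420 Mb, or 0.748 per Mb, below the 1.20 per Mb of all mid-late sequence. The density in short late domains was 0.962 times that of these flanks (95% interval 0.715 to 1.30, quasi-Poisson F test, n = 3541 domains, adjusted p = 0.800). The interval leaves room for a density up to 1.30 times higher or down to 0.715 times that of the flanks, so a difference of this size was not detectable, and equality is not shown. The ratio lay above 1 under some settings, at most 1.17 (0.853 to 1.60), and none of these passed the test.

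Density within the short domains differed with what lay beyond the flanks. Domains with mid-early sequence beyond both flanks had 2.48 peaks per Mb (1.73 to 3.45, 35 peaks in 14.1 Mb). Those with late sequence on 1 side had 0.818 (0.624 to 1.05, 60 peaks), and those with late sequence on both sides had 0.416 (0.303 to 0.556, 45 peaks). The 3 intervals, which cover counting error only, do not overlap, and the difference was not tested. Of the 35 peaks of the first setting, 21 lay in 27 domains within 5 Mb of a wide interval, here a mid-early interval over 1 Mb or the unlisted start of a chromosome. Away from wide intervals the 3 settings had 1.40 (0.766 to 2.35, 14 peaks), 0.735 (0.540 to 0.977) and 0.402 (0.287 to 0.548), in the same order but with neighbouring intervals overlapping. Long domains in the same settings, pooled over all places, had 0.230, 0.191 and 0.172, with overlapping intervals. Values of interior long domains were ordered by setting, as given below, with neighbouring intervals overlapping, and this was not tested.

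The contrast with long domains was also fitted setting by setting, and the intervals of the ratios overlapped. With late sequence on 1 side the ratio of short to long was 4.57 (95% interval 2.39 to 8.72, n = 602 domains, adjusted p = 1.29e-05). With mid-early sequence on both sides it was 8.80 (2.23 to 34.8, n = 105 domains, adjusted p = 0.00342), and only 17 long domains lay in this setting. Away from wide intervals this ratio was 16.3, with an interval so wide (2.61 to 102, n = 77 domains, adjusted p = 0.00198) that its size is poorly known. With late sequence on both sides the ratio was 1.82 (0.923 to 3.60) and did not pass (n = 810 domains, adjusted p = 0.135). These 4 fits were added after seeing the data, and the difference between their ratios was not tested. Place on the chromosome was not a term in them, and their p-values were not adjusted over the 4 fits.

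Place on the chromosome moved with density as well. Within 5 Mb of a mid-early interval over 1 Mb, or of a list that starts more than 1 Mb into its chromosome, lay 164 short domains with 39 of the 142 peaks (1.72 per Mb, 1.22 to 2.35). Of the rest, the 243 short domains within 10 Mb of a chromosome end hold 16.0% of short-domain sequence and carried 71 of the peaks (50%), a density of 2.24 per Mb (1.75 to 2.82). Of these 71 peaks, 29 lay at 1 end of chromosome 8, and without the 6 short domains there the density was 1.36 (0.983 to 1.84). The remaining 1033 short domains, called interior, held 32 peaks in 144 Mb, or 0.222 per Mb (0.152 to 0.314). Long domains were ordered the same way, with 0.454, 0.686 and 0.0663.

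Interior short domains were still denser than interior long ones, by 3.41 times (95% interval 1.84 to 6.33, n = 1072 domains, adjusted p = 4.23e-04). Within the interior, short domains had 0.802 peaks per Mb with mid-early sequence beyond both flanks (0.294 to 1.75, 6 peaks), 0.259 with late on 1 side (0.142 to 0.434, 14 peaks) and 0.148 with late on both sides (0.0767 to 0.259, 12 peaks). Near chromosome ends the same settings had 3.18 (1.37 to 6.27), 3.33 (2.29 to 4.67) and 1.51 (1.00 to 2.18), so the first 2 did not keep this order there. Near wide intervals they had 5.08 (3.15 to 7.77), 1.39 (0.739 to 2.37) and 0.566 (0.184 to 1.32). Interior long domains had the same order as interior short ones, with 0.232 (0.0852 to 0.505, 6 peaks), 0.0778 (0.0389 to 0.139) and 0.0434 (0.0217 to 0.0777). Values of long domains near chromosome ends (0, 0.761 and 0.657) and near wide intervals (0.286, 0.300 and 0.604) were not in this order. The first value rests on 1 domain near chromosome ends (upper limit 3.23) and on 2 domains with 1 peak near wide intervals (0.00725 to 1.59). Whether the order holds for long domains in these places is therefore not known. By length, interior short domains had 0.442 at 20 to 100 kb, 0.260 at 100 to 200 kb and 0.121 at 200 to 500 kb (0.0552 to 0.229). Near chromosome ends the values by length were 3.19, 1.86 and 2.05, and near wide intervals 1.45, 2.09 and 1.56, with overlapping intervals in each place and no steady decrease with length.

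**Figure D4:**
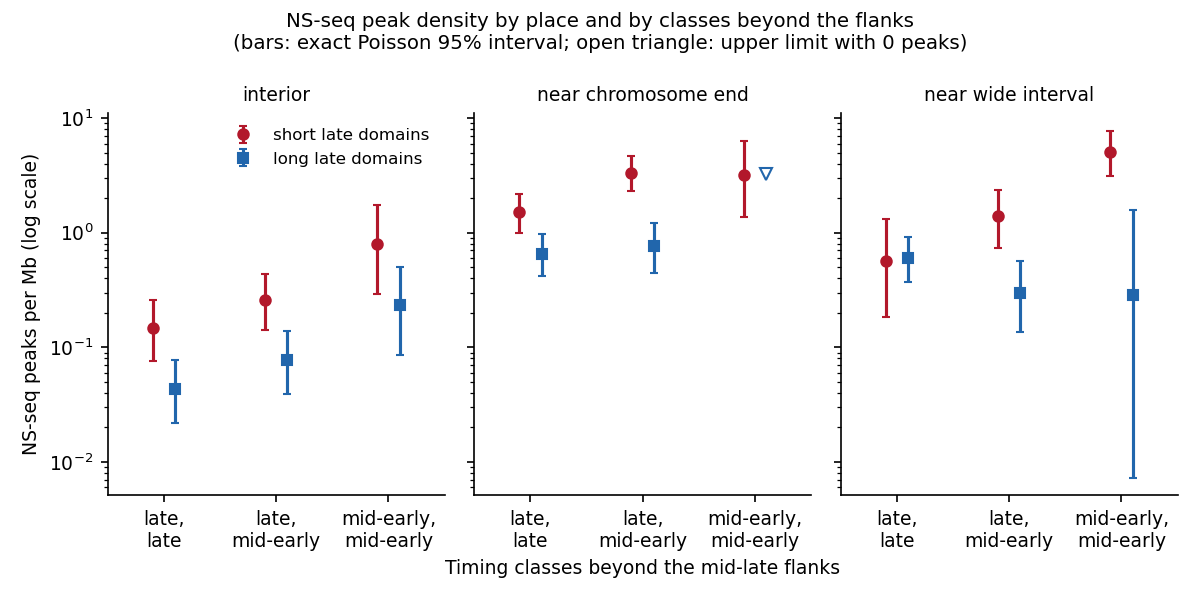
NS-seq peaks per Mb (log axis) in short (red) and long (blue) late domains by the timing classes beyond the mid-late flanks, in interior domains, domains near a chromosome end and domains near a wide interval, with exact Poisson 95% intervals and an open triangle for the upper limit where 0 peaks were found. Short interior domains go from 0.148 (late on both sides) to 0.802 (mid-early on both sides), and long interior domains from 0.0434 to 0.232.

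The peaks were gathered in few places. The end of chromosome 8, beyond 140 Mb, has 6 short domains, and 5 of them held 29 of the 142 peaks (20.4%) in 0.958 Mb for all 6. The domain with the most peaks of all was there (143095101 to 143342600, 247.5 kb), with 10 peaks of scores 10.1 to 16.8. Its neighbours were 140559901 to 140968500 (408.6 kb, 8 peaks), 143511901 to 143593300 (81.4 kb, 7 peaks) and 142950101 to 143073700 (123.6 kb, 3 peaks). The 81.4 kb domain had the highest density of the 8 domains richest in peaks, 86.0 per Mb. All other short domains together had 113 peaks, or 0.572 per Mb.

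The other 4 of the 8 domains richest in peaks lay elsewhere. Chromosome 4 had a domain of 195.4 kb with 5 peaks (49118001 to 49313400), which lies 0.383 Mb from a wide mid-early interval, and a domain of 166.2 kb with 4 peaks (3465701 to 3631900), 3.47 Mb from the chromosome end. A domain of 255.4 kb on chromosome 9 (44116801 to 44372200) held 4 peaks, 2.92 Mb from a wide interval. A domain of 304.1 kb on chromosome 15 (20119901 to 20424000) held 3 peaks and lay 0.170 Mb from the start of the list. Domains with 3 peaks numbered 5 in all, and the 2 named were the densest of them. The other 3 lay on chromosome 9 (46648901 to 46958500 and 68127701 to 68497500) and chromosome 22 (48821801 to 49157400). None of the 11 domains with 3 or more peaks was interior.

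Leaving out chromosome 8 lowered the ratio of short to long domains from 3.53 to 2.86 (95% interval 1.84 to 4.44, n = 1610 domains, adjusted p = 1.46e-05). Without it the ratio to the outer zones of long domains was 1.92 (1.14 to 3.23, n = 1610 regions, adjusted p = 0.0162), and the ratio to the flanks was 0.851 (0.627 to 1.16, adjusted p = 0.298). Short domains were denser than long ones on 18 of the 22 chromosomes with both kinds, less dense on chromosomes 3, 12 and 21, and equal at 0 peaks on chromosome 13. The 191 short domains of chromosomes 3, 12 and 13 held no peak in 26.9 Mb. The highest densities in short domains were on chromosome 22 (3.46 per Mb, 7 peaks in 2.02 Mb), chromosome 8 (2.39, 33 peaks) and chromosome 9 (1.63, 16 peaks).

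**Figure D5:**
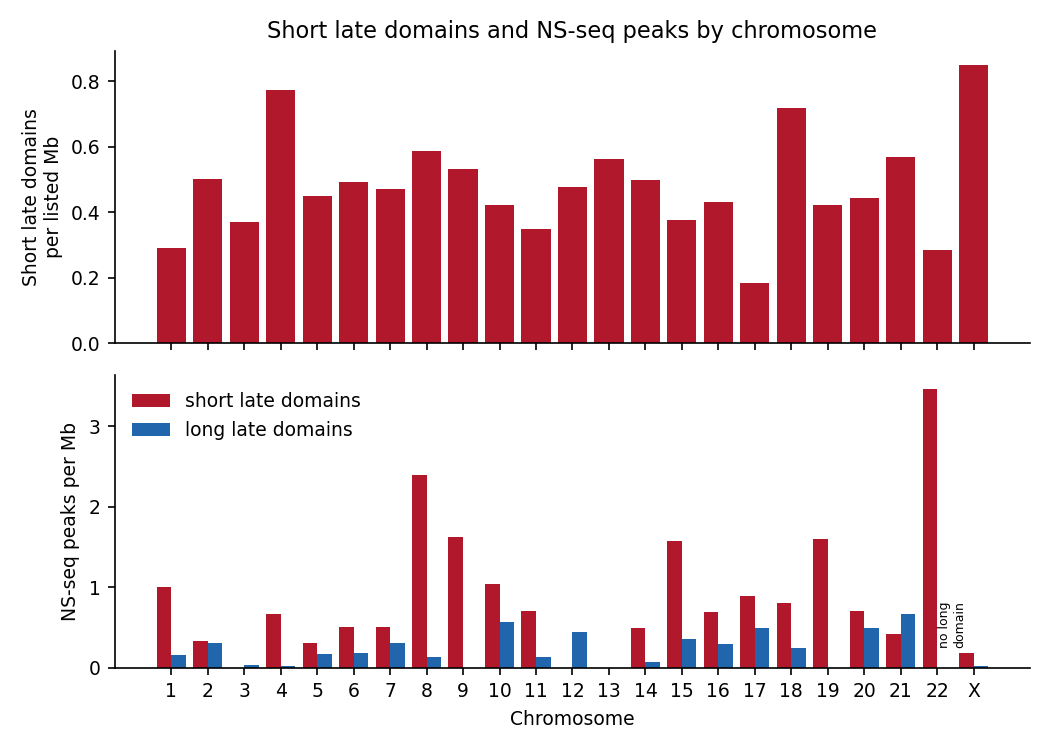
Short late domains per listed Mb (top) and NS-seq peaks per Mb in short (red) and long (blue) late domains (bottom) by chromosome. Chromosomes X, 4 and 18 have the most short domains per Mb, chromosomes 22 and 8 the most peaks per Mb of short domain, and chromosome 22 has no long late domain.

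Scores of the peaks did not set short domains apart. The score is the authors' value per peak, on a scale not given in the sources used here. Peaks in short domains had a median score of 11.9 (10.0 to 22.9), those in long domains 11.9 (10.0 to 21.9), and all peaks on these chromosomes 11.8. Peaks in short domains stood closer to other peaks than those in long domains: the nearest peak of the list was 66.7 kb away at the median (quartiles 6.35 and 475 kb), against 220 kb for long domains and 35.7 kb over all peaks. Of the 142 peaks, 64 (45.1%) had another peak within 50 kb, against 23 of 101 in long domains (22.8%). With peaks within 50 kb joined into zones, the ratio of short to long domains was 2.74 (95% interval 1.88 to 3.99, n = 1714 domains, adjusted p = 8.62e-07).

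Domains that were a single interval in the deposited list had 0.834 peaks per Mb (0.677 to 1.02), those joined from 2 intervals 0.666 (0.466 to 0.922) and those joined from 3 or more 0.321 (0.147 to 0.609). Joined domains are also longer on average, and the part of length in this order was not tested.

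A short late domain held 1 of the 129 AsiSI sites bound by MRE11, a nuclease that acts on DNA ends, in the HCT116 cells. The site is at 92396938 to 92396945 on chromosome 15, in a domain of 138.2 kb (92353701 to 92491900), 43.2 kb from its border and 103.9 kb from the nearest NS-seq peak. Of the other sites, 2 lay in long late domains, on chromosome 1 (192514431 to 192514438, in a domain of 5078 kb) and chromosome 13 (105238551 to 105238558, in a domain of 1306 kb). This is 0.504 sites per 100 Mb of short domain (exact Poisson 95% interval 0.0128 to 2.81) and 0.362 per 100 Mb of long domain (0.0439 to 1.31). With so few sites no difference between short and long domains was detectable. Short domains make up 6.72% of the listed sequence, and neither rate was tested against that of all listed sequence.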

How the data were processed

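The data are 6 lists of regions on hg19, attached to 4 of 97 samples. For NS-seq, DNA was fractionated by size and digested with exonuclease, per the labels' protocols. The submitters' processing notes name hg19 and MACS2. Not given in the sources used here are the aligner, the pooling of libraries and the division of timing classes. Read depth is unknown. The NS-seq list gives a deposited score per peak, used only within that list, to describe or filter its peaks.

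Timing intervals meet without gaps. Touching intervals of a class were joined. All 3724 peaks on chromosomes 1 to 22 and X (1000 bp each) were placed by midpoint, and 17 mitochondrial and 9 chromosome Y peaks were left out. Peaks per region were fitted in R 4.3.3 (quasi-Poisson glm, class and chromosome terms, log length as offset, two-sided F test, Benjamini-Hochberg over 3 comparisons). Where a setting was run for fewer than 3 comparisons, the others entered the adjustment at their main p-value. Chromosomes with 0 peaks in both classes left a fit. On simulated data with clustering within domains the ratio was recovered, and its 95% intervals were somewhat too narrow and its p-values somewhat too small. The strength of the simulated clustering was set in advance and not matched to these data, so these errors may be larger here. Simulated neighbouring domains were independent, so the error from clustering across domains was not measured. Python 3.11.15, pandas 2.3.3, numpy 2.4.6 and scipy 1.17.1 were used.

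Members and lists were chosen with earlier results of these data known. Domains named are the 8 with most peaks, the 5 nearest the limit on each side, the 3 shortest, the 5 most isolated, those with another class at a border or a break site, and the chromosomes with the 3 highest and 3 lowest numbers per Mb. The end of chromosome 8 and the interior were singled out after the data were seen. No hg19 sequence or annotation was used here, so gene density was not analysed here and no gene names or sequences are given.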

Additional observations from a re-analysis of the deposited data

How the results depend on the processing

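Short late domains were denser in NS-seq peaks than long ones under all 11 planned settings (ratios 2.74 to 4.05) and with each chromosome left out in turn (2.86 without chromosome 8 to 3.96 without chromosome 2), and every one of these fits passed. Of 7 settings added after seeing the data, 6 passed. The exception was the domains with late sequence beyond both flanks (1.82, n = 810, adjusted p = 0.135). Against the outer zones of long domains, all 11 planned settings passed (1.87 to 2.67), as did each fit without a chromosome (1.92 to 2.74). Of 3 added settings, only that with interior regions alone did not pass (1.87, n = 1083, adjusted p = 0.111). Against the flanks no setting passed. The ratio of 0.962 rose above 1 when late domains across gaps under 50 kb were joined (1.17), with the flank within 250 kb of the border (1.02), without regions near chromosome ends (1.04) and with interior regions only (1.02). Leaving out chromosomes in turn gave 0.851 to 1.01, the highest without chromosome 2. The cause of these changes was not tested. Gene start density was not run, since no hg19 annotation was used here. No paired analysis was possible because the lists do not separate samples.

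Read depth is unknown, the peak list begins at a score of 10.0 and the timing lists give classes without values, so how far a short domain lies from the mid-late class was not analysed here. With 142 peaks, 29 of them at 1 chromosome end, densities per chromosome rest on few counts. Timing and peaks come from different cell populations, and copy number was not analysed here.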
